A study of Rattus norvegicus with 18 samples.

Results

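The miR-30 family members examined here are the 7 mature miRNAs rno-miR-30a-5p, rno-miR-30b-5p, rno-miR-30c-5p, rno-miR-30d-5p, rno-miR-30e-5p, rno-miR-30a-3p and rno-miR-30e-3p (the prefix rno, for rat, is left out further on), chosen by name from the 909 entries (763 known miRNAs and 146 predicted candidates) of a table of small RNA counts from rat gastrocnemius muscle. The table holds 4 further strands of the family that were not chosen, miR-30b-3p, miR-30c-1-3p, miR-30c-2-3p and miR-30d-3p. All 7 members were counted in every library and passed the filter on low counts. There were 18 male Brown Norway rats, 1 library each: young AL (replicates 1 to 6) were 6 rats aged 6 months, old AL (replicates 7 to 12) were 6 rats aged 28 months, both with food ad libitum (AL), and old CR (replicates 13 to 18) were 6 rats aged 28 months on caloric restriction (CR), given 55% of the ad libitum ration. No young group on CR was analysed here, so that age and diet both differ between old CR and young AL. The study asked which miRNAs change in ageing muscle and how far CR reverses this.

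A miRNA hairpin is cut into a 5p and a 3p strand, and the strand loaded into an Argonaute protein pairs with messenger RNAs mainly through its seed, bases 2 to 8. The 5p strands of the miR-30 family share a seed and are the strands usually loaded, whereas the 3p strands carry other seeds. In muscle and other tissues miR-30 is known to act on connective tissue growth factor, on regulators of autophagy such as Beclin 1 and on factors of mitochondrial fission.

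The mature sequences show how little separates the members that were counted apart. RefSeq (GRCr8) gave a sequence for 4 of the 7 members, printed 5′ to 3′ with the seed in capitals. The members without an entry are miR-30b-5p, miR-30d-5p and miR-30e-3p.
miR-30a-5p: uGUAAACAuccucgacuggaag
miR-30e-5p: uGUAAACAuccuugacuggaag
miR-30c-5p: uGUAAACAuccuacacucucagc
miR-30a-3p: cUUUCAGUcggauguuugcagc

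miR-30a-5p and miR-30e-5p differed at 1 base, C13U with positions counted from the 5′ end and the base of miR-30a-5p first. miR-30c-5p differed from miR-30a-5p at 5 of the 22 positions compared, the first at position 13, outside the seed. Among the 686 known miRNAs of the table with a sequence, the seed GUAAACA was also found in miR-384-5p. None of the others among these 686 had the seed of miR-30a-3p, UUUCAGU. The member miR-30e-3p was not among them for want of a sequence. The hairpin of Mir30e also holds the bases UUUCAGU, so that this seed cannot be called particular to miR-30a-3p. The hairpin of Mir30a is shown for its 2 arms, which are compared as a ratio further on, with both mature strands in capitals.
Mir30a hairpin: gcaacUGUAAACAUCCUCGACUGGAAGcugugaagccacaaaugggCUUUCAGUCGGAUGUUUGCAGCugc

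In the RefSeq annotation of GRCr8 the family lies in 3 pairs of neighbouring genes, with no gene lying wholly between the genes of a pair. Mir30a and Mir30c2 are on chromosome 9, where Mir30c2 overlaps the long non-coding RNA LOC134480562 and the pseudogene Rbx1-ps1. Mir30b and Mir30d, on chromosome 7, overlap the long non-coding RNA LOC102551574. Mir30e and Mir30c1, on chromosome 5, overlap Nfyc, which encodes a subunit of the transcription factor NF-Y. The mature miR-30c-5p had the same sequence from Mir30c1 and from Mir30c2, so that its count cannot be divided between these genes.

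The total count of a library was 34940346 to 83110905. The entries of miR-1, the most abundant miRNA of striated muscle, were taken as miR-1-3p, miR-1b, miR-3571 and any predicted candidate whose counts followed theirs. They took 60.7% to 86.8% of the counts, and whether the same reads were counted in several of them was not tested. The scaling factors (TMM, trimmed mean of M-values) ranged from 0.656 to 2.08. The highest was in old AL 7, the library with the lowest share of miR-1. Levels are therefore given as CPM, the counts of an entry scaled to a common library size, after TMM scaling over the 18 libraries. Of the 8 striated muscle miRNAs examined, miR-1-3p (mean 94537 CPM), miR-133a-3p (16811 CPM) and miR-206-3p (7821 CPM) were abundant, while the heart miRNA miR-208a-3p had 0.0064 CPM. In muscle tissue, a change in the cells present and a change in the RNA of each cell cannot be told apart. Summed levels of markers were 109 to 606 CPM for leukocytes (5 miRNAs), 3818 to 8048 CPM for endothelium (2), 1035 to 2226 CPM for fibroblasts (3), 3.41 to 11.8 CPM for erythroid cells (3), 321 to 1030 CPM for neural cells (3), 9.88 to 441 CPM for epithelium (5) and 0.549 to 774 CPM for liver (2). By edgeR, 2 of the 2 liver and 2 of the 3 neural miRNAs were called, with higher levels, in old CR against young AL, and no other miRNA of these lists was called in any comparison. The third neural miRNA, miR-128-3p, went the other way there without a call (log2 fold change -0.46). Its mean of 572 CPM far exceeded those of miR-9a-5p (30.5 CPM) and miR-124-3p (1.87 CPM), which were called. The neural sum therefore did not rise with them, averaging 583 CPM under CR beside 722 CPM in the young rats.

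Of the 18 libraries, 4 stood apart in miR-30a-5p. Beside the replicate number, the labels give each library a code of paired numbers without saying what they refer to. The first of the pair runs from 3 to 20 and is the number used here. The other rises with the replicate number within each group and does not set these 4 libraries apart. Young AL 1 and 2 are numbered 19 and 20, and old CR 17 and 18 are numbered 17 and 18. These 4 libraries had the highest levels of miR-30a-5p, 10074 to 11500 CPM against 4033 to 7835 CPM in the other 14. They were set apart after the levels of miR-30a-5p had been seen, so this is a description and not a test. Of 170 known miRNAs with a mean of at least 10 CPM, miR-30a-5p alone (1 of 170, 0.588%) was higher in all 4 than in each of the other 14, and 0 were lower in all 4.

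The same 4 libraries carried counts of a predicted candidate that followed miR-30a-5p. The authors' candidate numbered 70 had 574944 counts in young AL 1, 734850 in young AL 2, 582570 in old CR 17 and 806238 in old CR 18. These were 95.7%, 95.4%, 94.8% and 94.8% of the counts of miR-30a-5p in the same library. In the other 14 libraries candidate 70 was listed at 0, although miR-30a-5p had at least 233567 counts in each. It was the only 1 of 146 predicted candidates counted in these 4 libraries and in no other. The candidate numbered 13 followed miR-30c-5p in all 18 libraries, within 1.39% of its count. Whether the same reads were counted for a candidate and for a member was not tested, and neither was the part of candidate 70 in the higher level of miR-30a-5p. The main results on miR-30a are therefore given with and without the libraries numbered 17 to 20.

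**Figure D1:**
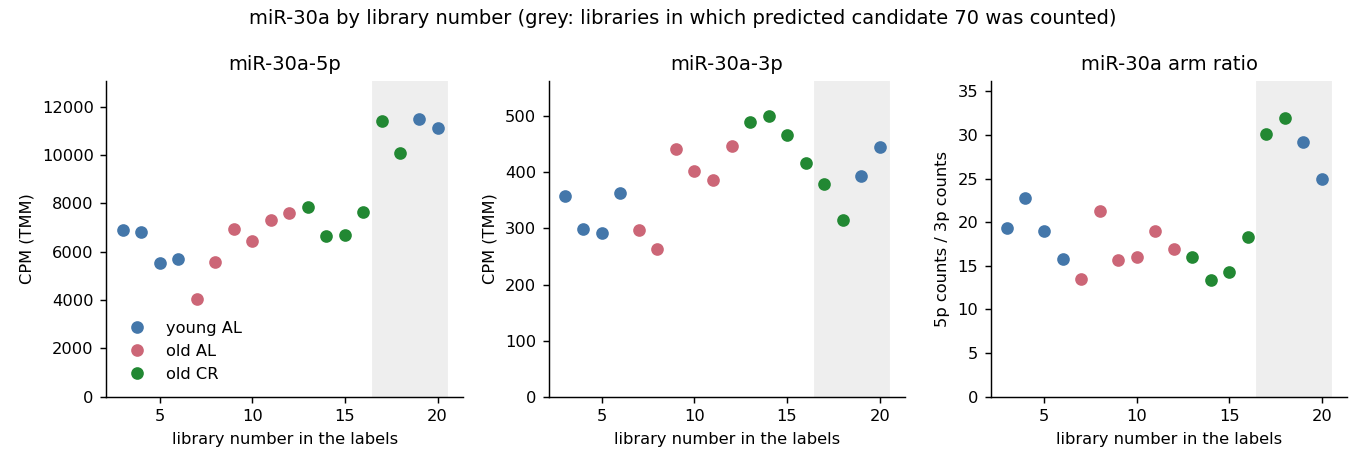
Level of miR-30a-5p (left), level of miR-30a-3p (middle), both in CPM after TMM scaling, and the ratio of their counts (right) against the number of each library in the labels, 1 point per library, coloured by group. In the grey area, libraries 17 to 20, miR-30a-5p is at 10074 to 11500 CPM and its ratio to miR-30a-3p at 25.0 to 31.9, above the other 14 libraries, whereas miR-30a-3p lies within their range.

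The 5p strands of miR-30a, miR-30c and miR-30d made up most of the family. Mean levels over the 18 libraries were 7543 CPM for miR-30a-5p, 6122 CPM for miR-30c-5p and 4685 CPM for miR-30d-5p, which ranked 11, 13 and 16 among the 763 known miRNAs. miR-30e-5p (791 CPM, rank 38), miR-30b-5p (474 CPM, rank 51), miR-30a-3p (387 CPM, rank 53) and miR-30e-3p (153 CPM, rank 69) were lower. The 7 members together took 1.25% to 2.96% of all counts and 7.26% to 11.6% of the counts outside the miR-1 entries. The mature strands with a sequence are 22 or 23 bases long, but adapter ligation favours some ends over others, so that the order of levels is one of sequenced molecules.

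The order of the members was nearly the same in the 3 groups. miR-30d-5p stood above miR-30e-5p, and miR-30a-3p above miR-30e-3p, in all 6 libraries of each group and without overlap of the ranges. Among miR-30a-5p, miR-30c-5p and miR-30d-5p, neighbours in the order of means overlapped in range in each group. miR-30a-5p had the highest mean in young AL and old CR, and miR-30c-5p in old AL, where it was above miR-30a-5p in 4 of 6 libraries. miR-30e-5p was above miR-30b-5p in 6 of 6 libraries of each group although the ranges overlapped, and miR-30b-5p and miR-30a-3p could not be ordered (miR-30b-5p was higher in 4, 3 and 3 of 6 libraries of young AL, old AL and old CR).

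The other strands of the family were scarce. miR-30c-2-3p had a mean of 88.6 CPM, miR-30c-1-3p 4.22 CPM, miR-30d-3p 4.06 CPM and miR-30b-3p 0.0495 CPM, the last with 56 counts in all 18 libraries. The counts of miR-30c-2-3p were 14.2 to 27.6 times those of miR-30c-1-3p within a library. These 2 strands share a seed and come from Mir30c2 and Mir30c1, the genes that give the same 5p strand. Of the 4 strands outside the chosen members, 0 were called by edgeR or by DESeq2 in any comparison, and 0 had an unadjusted p under 0.05 by edgeR.

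With age, no member passed edgeR's test. In old AL against young AL, both fed ad libitum, 0 of 7 members were called by edgeR's quasi-likelihood test (adjusted p of at most 0.05 over all entries and a fold change of at least 1.5), where 24 of the 732 entries tested were called, 3.28%. At an unadjusted p under 0.05 there was 1 of 7, miR-30e-5p, beside 171 of 732 entries (23.4%). DESeq2, the tool of the study, called 1 of 7 at the same thresholds, again miR-30e-5p, beside 84 of 732 entries (11.5%). The median log2 fold change of the 7 members was -0.28 (range -0.65 to 0.15), with 5 lower and 2 higher in old AL, and the median over all 732 entries was 0.065. Without young AL 1 and 2 the median of the members was 0.038, beside 0.076 over all entries, so that its sign rested on these libraries. The groups overlapped for every member, whereas they did not for 3.55% of the entries.

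miR-30e-5p was the member nearest to a call with age. The young AL libraries had 633 to 1348 CPM (median 1072), the old AL libraries 492 to 830 CPM (median 600) and the old CR libraries 493 to 1033 CPM (median 758). Of the 6 young AL libraries, 4 were above the highest old AL library, and the other two lay within the old AL range. The means were 983 ± 277 CPM (young AL) and 627 ± 123 CPM (old AL, SD, n = 6 each), and the difference did not pass edgeR's test (log2 fold change -0.65, SE 0.21, 95% interval -1.10 to -0.20, adjusted p = 0.105).

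The call of miR-30e-5p turned on the entries over which p was adjusted and on the test. The adjusted p was 0.0404 by edgeR after filterByExpr (479 entries tested), 0.0407 by edgeR over known miRNAs alone (598 entries) and 0.0201 by DESeq2. It was 0.0640 to 0.188 by edgeR with each library left out in turn, and without young AL 1 and 2 the log2 fold change was -0.46 (adjusted p = 0.273). Over the other alternatives of normalization and fit it was not called, the highest adjusted p being 0.288 with library totals alone.

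miR-30d-5p, the next member above miR-30e-5p in level, ran from 3688 to 6367 CPM among young AL libraries (median 5121) and from 3206 to 4805 CPM among old AL libraries (median 3664). Of the young AL libraries, 3 exceeded every old AL library. The means, 5120 ± 1158 and 3896 ± 669 CPM (SD, n = 6 each), differed by a log2 fold change of -0.40 (SE 0.19, 95% interval -0.81 to 0.016, adjusted p = 0.228 by edgeR).

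miR-30a-5p ran from 5544 to 11500 CPM among young AL libraries (median 6853) and from 4033 to 7583 CPM among old AL libraries (median 6679). The 2 highest young AL libraries were those numbered 19 and 20, and the other 4 lay within the old AL range. The log2 fold change was -0.32 (SE 0.24, adjusted p = 0.462 by edgeR) with all libraries and 0.038 (adjusted p = 0.959) without young AL 1 and 2, the mean of young AL then being 6242 ± 710 CPM (SD, n = 4) beside 6314 ± 1324 CPM in old AL. The direction with age thus rested on these 2 libraries.

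The remaining members showed smaller differences with age. miR-30b-5p had a mean of 535 ± 161 CPM for young AL and 437 ± 102 CPM for old AL (log2 fold change -0.28, SE 0.22, adjusted p = 0.483 by edgeR). miR-30c-5p, the most abundant member in old AL, had 5871 ± 880 and 6507 ± 1365 CPM (0.15, SE 0.19, adjusted p = 0.705). The 3p strands miR-30a-3p and miR-30e-3p had log2 fold changes of 0.062 and -0.15, which were 0.20 and 0.086 without young AL 1 and 2. Over all 18 libraries miR-30b-5p ran from 266 to 801 CPM, miR-30c-5p from 4162 to 7825 CPM and miR-30e-3p from 105 to 261 CPM, the last with its highest value in young AL 2 and at most 180 CPM elsewhere. Old CR lay close to old AL for miR-30b-5p (449 ± 105 CPM, log2 fold change 0.039) and miR-30e-3p (150 ± 16 CPM, 0.033), with 95% intervals of -0.42 to 0.50 and -0.25 to 0.32. For 6 of the 7 members the 95% interval lay within 2-fold either way, miR-30e-5p being the exception.

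**Figure D2:**
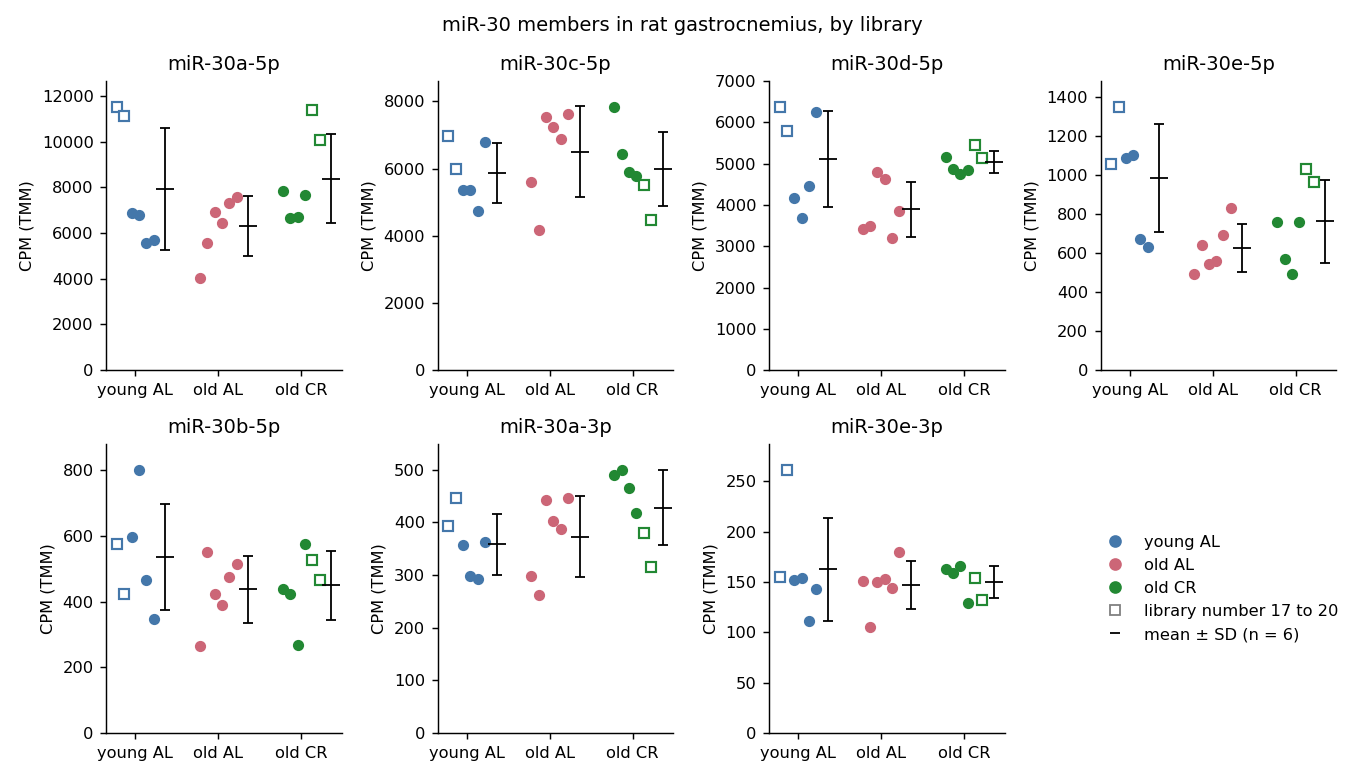
Level of each of the 7 members (CPM after TMM scaling, linear axis from 0) in every library of young AL, old AL and old CR, with the mean ± SD of the 6 libraries beside the points. Open squares are the libraries numbered 17 to 20, which are the 4 highest for miR-30a-5p. The groups overlap in every panel.

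At 28 months, no member passed the test for CR. In old CR against old AL, 0 of 7 members were called by edgeR, beside 2 of 736 entries (0.272%). There was 1 of 7 at an unadjusted p under 0.05, miR-30d-5p, beside 88 of 736 entries (12%), and 0 of 7 were called by DESeq2, beside 19 of 736 (2.58%). The median log2 fold change of the members was 0.20 (range -0.12 to 0.40), with 6 higher and 1 lower in old CR, and the median of all entries was 0.0069. No member had groups without overlap, as 0.543% of the entries did. Old AL is the control here and the test group in the comparison with age, so that the 2 sets of values share these 6 libraries.

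miR-30d-5p was the most uniform member under CR. Its level in old CR was 4742 to 5463 CPM (median 5004), a mean of 5040 ± 267 CPM (SD, n = 6) and a coefficient of variation of 5.3%, against 22.6% in young AL and 17.2% in old AL. Of the 6 old AL libraries, 5 were below every old CR library. The log2 fold change against old AL was 0.37 (SE 0.12, 95% interval 0.11 to 0.63, adjusted p = 0.392 by edgeR). With DESeq2 the adjusted p was 0.0198 at a log2 fold change of 0.39, below the fold change set for a call. Without the libraries numbered 17 to 20 the log2 fold change was 0.36 (adjusted p = 0.649 by edgeR), and with library totals in place of TMM it was 0.14 (adjusted p = 0.880).

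miR-30a-5p was 6659 to 11401 CPM in old CR (median 7739), with 4 libraries above the highest of old AL, old CR 13, 16, 17 and 18. Its log2 fold change against old AL was 0.40 (SE 0.19, 95% interval -0.0049 to 0.81, adjusted p = 0.414 by edgeR). It was 0.21 (adjusted p = 0.830) without old CR 17 and 18, where the mean was 7205 ± 622 CPM (SD, n = 4). miR-30e-5p had a mean of 763 ± 212 CPM in old CR and a log2 fold change against old AL of 0.28 (adjusted p = 0.591), which was 0.063 (adjusted p = 0.959) without these 2 libraries.

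Old CR was then compared with young AL, in which neither age nor diet is shared. None of the members was called (0 of 7 by edgeR and 0 of 7 by DESeq2, beside 68 and 109 of 730 entries, 9.32% and 14.9%), and 0 of 7 had an unadjusted p under 0.05 by edgeR, beside 186 of 730 entries (25.5%). The median log2 fold change of the members was -0.033 (range -0.39 to 0.25), beside 0.076 over all entries. Without the libraries numbered 17 to 20 these medians were 0.15 and 0.081. Again the groups overlapped for every member, and did not for 5.07% of the entries. miR-30a-5p had a log2 fold change of 0.063 (SE 0.22, adjusted p = 0.922), and of 0.22 (adjusted p = 0.398) without the libraries numbered 17 to 20. The lowest value was that of miR-30e-5p (-0.39, SE 0.23, adjusted p = 0.323) and the highest that of miR-30a-3p (0.25, SE 0.15, adjusted p = 0.359). All 7 intervals lay within 2-fold either way.

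miR-30a-3p is the partner strand of miR-30a-5p. The young AL libraries had 292 to 446 CPM of it (median 360), the old AL libraries 263 to 447 CPM (median 395) and the old CR libraries 315 to 500 CPM (median 442). The 2 highest young AL libraries and the 2 lowest old CR libraries were those numbered 17 to 20. In the other libraries the range was 292 to 363 CPM in young AL (n = 4) and 417 to 500 CPM in old CR (n = 4). The log2 fold change between these was 0.53 and did not pass edgeR's test (adjusted p = 0.0666). This split was made after levels had been seen, and the share of all entries whose ranges lie apart in it was not counted. Over all 12 libraries the ranges overlapped (log2 fold change 0.25, adjusted p = 0.359 by edgeR). With the library number as a term in the fit over all 12 libraries the log2 fold change was 0.24 (adjusted p = 0.431).

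**Figure D3:**
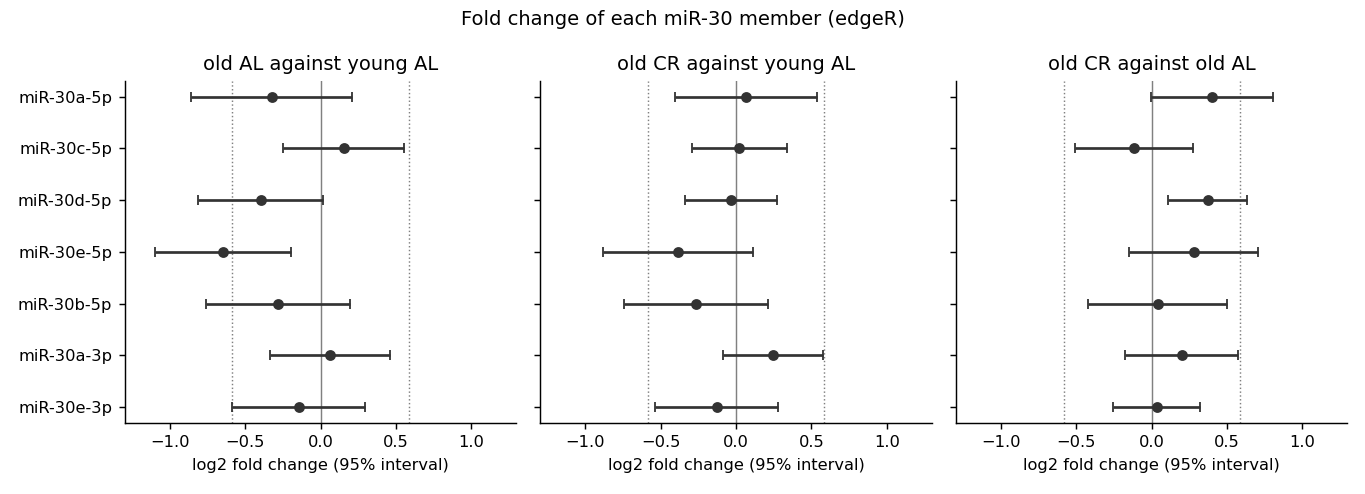
Log2 fold change of each member by edgeR in the 3 comparisons, with its 95% interval. The solid line is 0 and the dotted lines are a fold change of 1.5 either way. The interval excludes 0 for miR-30e-5p in old AL against young AL (-1.10 to -0.20) and for miR-30d-5p in old CR against old AL (0.11 to 0.63), before adjustment over all entries.

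The ratio of the 5p to the 3p strand of a hairpin within a library does not depend on scaling. For miR-30a it ran from 15.7 to 29.2 among young AL libraries (median 21.1), from 13.5 to 21.3 among old AL libraries (median 16.5) and from 13.3 to 31.9 among old CR libraries (median 17.1). The 4 libraries numbered 17 to 20 had ratios of 25.0 to 31.9, and the other 14 had 13.3 to 22.8. For miR-30e, whose 5p strand differs from that of miR-30a at 1 base, the young AL libraries had 4.43 to 7.17 (median 6.44), the old AL libraries 3.27 to 6.07 (median 4.14) and the old CR libraries 2.97 to 7.31 (median 5.26).

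Neither ratio was called between groups by limma's moderated test over all hairpins with both strands counted. In old AL against young AL, 0 of the 2 ratios were called and 1 had an unadjusted p under 0.05, beside 0 of 87 pairs called (0%) and 15 of 87 at an unadjusted p under 0.05 (17.2%). The log2 ratio of miR-30e was lower in old AL by 0.51 (log2 difference -0.51, SE 0.19, 95% interval -0.91 to -0.10), with an adjusted p of 0.182 by limma and an unadjusted p of 0.0195 by the exact two-sided permutation test, and the median difference of all 87 pairs was -0.16. Without the libraries numbered 17 to 20 it was -0.52 (adjusted p = 0.144 by limma). That of miR-30a was -0.34 (SE 0.19, adjusted p = 0.329), and -0.17 (adjusted p = 0.739) without these libraries.

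The other comparisons gave no call either. In old CR against young AL, 0 of 2 ratios were called and 0 had an unadjusted p under 0.05 (0% and 9.2% of the 87 pairs), with log2 differences of -0.14 for miR-30a and -0.29 for miR-30e. Without the libraries numbered 17 to 20 these were -0.31 (adjusted p = 0.493 by limma) and -0.56 (adjusted p = 0.377), the latter close to the difference of miR-30e with age. In old CR against old AL, 0 of 2 were called and 0 had an unadjusted p under 0.05 (0% and 12.8% of the 94 pairs). There the log2 differences were 0.20 for miR-30a and 0.21 for miR-30e, and they turned to -0.13 and -0.040 without old CR 17 and 18. The exact permutation test, adjusted over all pairs, called neither ratio in any of the 3 comparisons. Its smallest p, 0.00216, is too coarse for an adjustment over so many pairs, so that nothing is concluded from this.

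**Figure D4:**
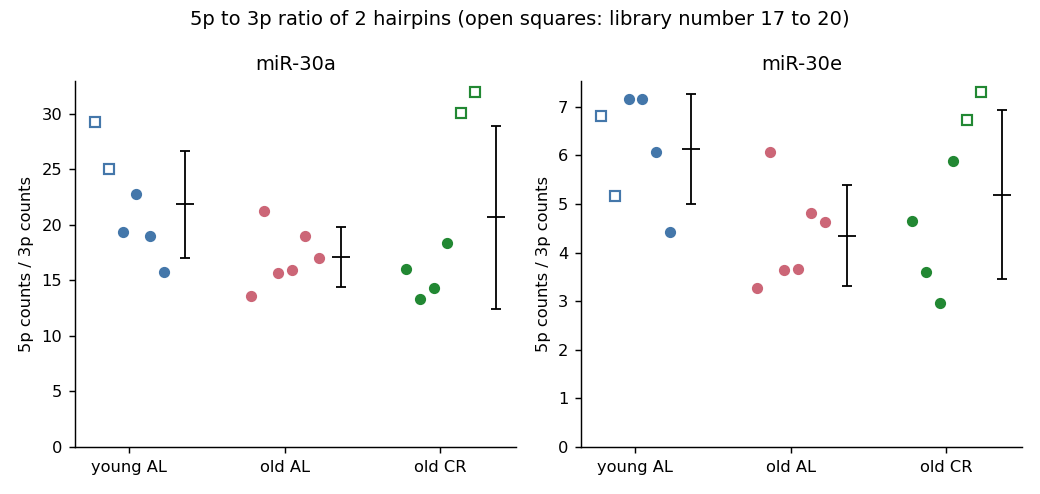
Ratio of 5p to 3p counts of miR-30a (left) and miR-30e (right) in each library by group, on linear axes from 0, with the mean ± SD of 6 libraries. Open squares are the libraries numbered 17 to 20, which have the 4 highest ratios of miR-30a (25.0 to 31.9).

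The composition of the 5 members that are 5p strands was given as each one's share of their summed counts. Values are given for young AL, old AL and old CR in this order (mean ± SD, n = 6 each). miR-30a-5p took 38.1% ± 5.8, 35.4% ± 3.8 and 40.3% ± 5.9, and without the libraries numbered 17 to 20 its share was 35.1% ± 4.4 in young AL and 36.6% ± 1.7 in old CR (n = 4 each). miR-30c-5p took 29.1% ± 3.5, 36.4% ± 3.9 and 29.3% ± 6.0, and without these libraries 31.0% ± 2.3 in young AL and 32.9% ± 2.6 in old CR. In old AL its share was 28.9% to 40.6% (median 37.3), and in young AL 24.3% to 34.4% (median 29.7), with overlap through the lowest old AL library, old AL 8. miR-30d-5p took 25.2% ± 4.0, 22.1% ± 3.2 and 24.5% ± 1.3, miR-30e-5p 4.85% ± 1.22, 3.57% ± 0.67 and 3.66% ± 0.73, and miR-30b-5p 2.73% ± 1.08, 2.49% ± 0.71 and 2.17% ± 0.47. A share falls when another rises, and these were not tested.

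**Figure D5:**
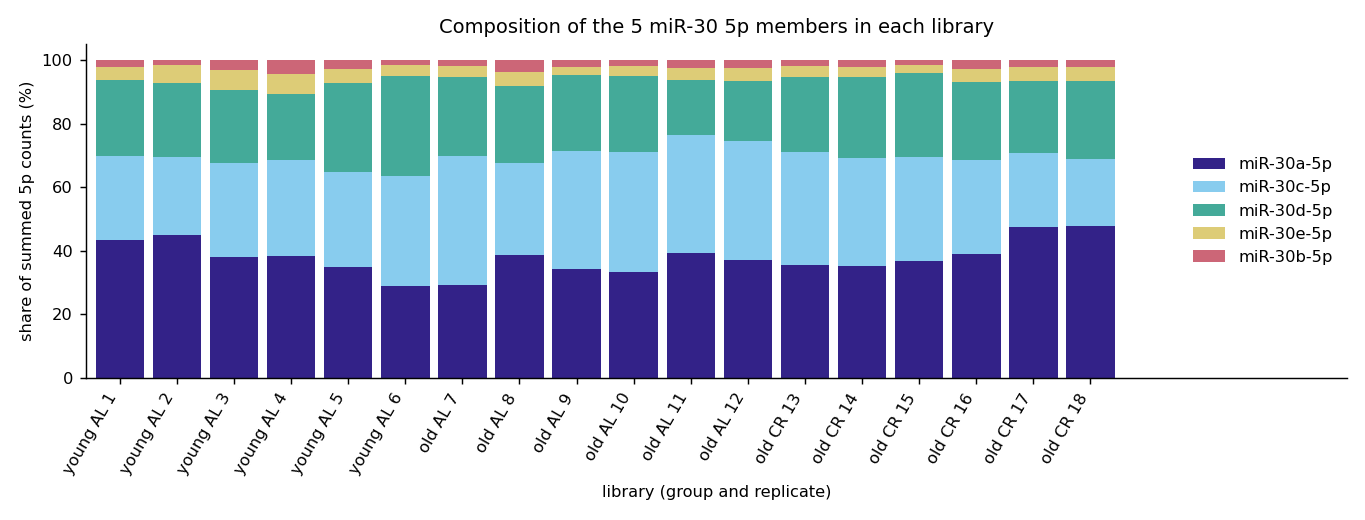
Share of each 5p member in the summed counts of the 5 of them (percent), 1 stacked bar per library, in the order of groups and replicates. miR-30a-5p, miR-30c-5p and miR-30d-5p fill most of every bar, and miR-30c-5p reaches its highest share, 40.6%, in old AL 7.

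Since a single base separates miR-30a-5p from miR-30e-5p, and the sources used here do not say how ambiguous reads were assigned, their counts were also looked at together. miR-30a-5p had 6.18 to 13.6 times the counts of miR-30e-5p within a library, with means of 8.16 ± 1.76, 10.1 ± 1.8 and 11.2 ± 1.3 for young AL, old AL and old CR (SD, n = 6 each). The summed level of miR-30a-5p, miR-30d-5p and miR-30e-5p was 14036 ± 3595, 10837 ± 1706 and 14186 ± 2376 CPM in the same order. Without the libraries numbered 17 to 20 the sum was 11757 ± 835 CPM in young AL (n = 4) and 12762 ± 894 CPM in old CR (n = 4), nearer to the 10837 ± 1706 CPM of old AL. Over all libraries the 3 ranges overlapped, with 10667 to 18922, 7936 to 12275 and 11917 to 17898 CPM.

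Pearson's r of log2 CPM over the 18 libraries, whose values share depth and scaling, is given as a description of how members varied together. For members from neighbouring genes it was 0.12 for miR-30a-5p and miR-30c-5p (0.48 over the 14 libraries without those numbered 17 to 20). It was -0.18 for miR-30e-5p and miR-30c-5p, and -0.10 for miR-30b-5p and miR-30d-5p, whose genes overlap the same long non-coding RNA. The ratio of miR-30d-5p to miR-30b-5p within a library ran from 4.61 to 18.1. The highest values were 0.77 for miR-30c-5p and miR-30a-3p, 0.74 for miR-30a-5p and miR-30e-5p and 0.68 for miR-30b-5p and miR-30e-5p. Without the libraries numbered 17 to 20 these were 0.79, 0.46 and 0.86 over 14 libraries. For the 2 strands of Mir30a it was 0.37 over 18 libraries and 0.66 over 14.

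Outside the family, the known miRNA most like each member was found among 162 with a mean of at least 10 CPM, by Pearson's r of log2 CPM over the 18 libraries. It was miR-26b-5p for miR-30a-5p (0.72, and 0.87 without the libraries numbered 17 to 20), miR-340-5p for miR-30b-5p (0.88), miR-133a-5p for miR-30c-5p (0.85), miR-181a-5p for miR-30d-5p (0.81), miR-16-5p for miR-30e-5p (0.71), miR-10b-3p for miR-30a-3p (0.88) and miR-345-3p for miR-30e-3p (0.59). Each value is the highest of 162 and has no test. Each member thus had a different nearest miRNA.

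A list of 8 miRNAs that are known, as miR-30 is, to act on genes of the extracellular matrix was set beside the family: miR-133a-3p, miR-133b-3p, miR-29a-3p, miR-29b-3p, miR-29c-3p, miR-101a-3p, miR-26a-5p and miR-26b-5p. By edgeR 0 of 8 were called in each of the 3 comparisons, beside 3.28%, 9.32% and 0.272% of all entries in the order that follows. The log2 fold changes of the 8 had a median of 0.13 (0.029 to 0.69) in old AL against young AL. It was 0.23 (0.13 to 0.78) in old CR against young AL and 0.096 (-0.031 to 0.26) in old CR against old AL. In old AL against young AL all 8 values were above 0, where 5 of the 7 miR-30 members were below 0. The median over all entries was 0.065. Without young AL 1 and 2 the median of the miR-30 members was 0.038, so that this contrast rested in part on these libraries.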

How the data were processed

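Small RNA of 18 gastrocnemius libraries (NEBNext small RNA kit) was sequenced. The authors trimmed adapters (cutadapt 1.2.1) and low-quality ends (Sickle), identified known miRNAs and predicted candidates with miRDeep2, and deposited raw counts per entry. The labels also name Bowtie2 2.4.0 and Rnor_6.0. For the strand setting and the assignment of ambiguous reads, the answer is not given in the sources used here. No column was left unused (0).

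Groups followed the labels. The deposited counts were tested with edgeR 4.0.16 (R 4.3.3): TMM, quasi-likelihood test with robust dispersion, 12 libraries per fit, entries with at least 10 counts in total, Benjamini-Hochberg adjustment over all entries, a call at adjusted p of at most 0.05 and fold change of at least 1.5. The log2 ratio of 5p to 3p counts (prior count 0.5, at least 10 counts of each strand in every library) was tested with limma 3.58.1, with an exact permutation test (924 arrangements of 6 against 6 libraries, smallest two-sided p 0.00216) beside it. DESeq2 1.42.0 was an alternative. It is the tool that the study used, with the same thresholds of adjusted p and fold change. All tests are two-sided. The edgeR test was tried on simulated counts. The limma test was tried on real counts with the libraries shuffled and the 5p counts of some hairpins raised. Both trials were made for old AL against young AL only, and their outcomes are not given here. p-values measure the spread between rats, and counts without molecular identifiers are not independent molecules.

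The miRNAs named are the 7 members, the other strands of the family, predicted candidates whose counts lay within 10% or 2 counts of a member wherever counted, the known miRNA with the highest correlation with each member, the miR-1 entries, and the list of matrix miRNAs and the marker miRNAs. Members and lists were chosen with earlier results of these data known. The libraries numbered 17 to 20 were set apart after the levels of miR-30a-5p were seen.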

Additional observations from a re-analysis of the deposited data

Results flagged for a closer look

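In young AL, miR-30e-3p was 261 CPM in replicate 2 and at most 155 CPM in the other 5 libraries, a gap to the nearest library wide enough for Dixon's 95% criterion for 6 values. This was 1 of 27 sets of 6 values examined (7 members and 2 strand ratios in 3 groups), and chance flags about 1 in 20. Without this library the log2 fold change of miR-30e-3p was 0.047 in old AL against young AL and 0.071 in old CR against young AL, in place of -0.15 and -0.13.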

How the results depend on the processing

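In old AL against young AL the number of members called rose from 0 to 1 with DESeq2, with filterByExpr and with known miRNAs alone, the member being miR-30e-5p each time. Every other alternative run, each library left out in turn included, gave 0 members and 0 strand ratios in the 3 comparisons. The number of all entries called ran from 0 to 84 in old AL against young AL (24 as reported), from 10 to 109 in old CR against young AL (68) and from 0 to 19 in old CR against old AL (2). The lowest were with library totals alone, with libraries 17 to 20 left out and with several alternatives, and the highest with DESeq2. As no member and no strand ratio passed the main test, every sign that turned was in a difference without a call. Without young AL 1 and 2 the log2 fold changes against young AL became 0.038 for miR-30a-5p and 0.086 for miR-30e-3p in old AL, and 0.12 for miR-30d-5p and 0.11 for miR-30e-3p in old CR. Library number as a term gave 0.038 and 0.086 for the first pair, and -0.013 for miR-30b-5p and 0.014 for miR-30c-5p in old CR against old AL. Leaving out libraries 17 to 20 gave 0.095 for miR-30d-5p and 0.15 for miR-30e-3p in old CR against young AL, and -0.013 for miR-30b-5p and 0.015 for miR-30c-5p in old CR against old AL, where the ratios of miR-30a and miR-30e turned to -0.13 and -0.040 under both treatments of the numbers.

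In old CR against young AL, upper-quartile factors gave -0.075 for miR-30a-5p and -0.067 for miR-30c-5p, and miR-30c-5p was -0.15 with library totals, -0.053 with totals outside miR-1, -0.048 with filterByExpr and -0.024 with no filter. In old CR against old AL, miR-30b-5p was -0.094, -0.15 and -0.080 and miR-30e-3p -0.081, -0.20 and -0.074 with upper-quartile factors, library totals and totals outside miR-1, and miR-30a-3p was -0.0061 with library totals. Library totals moved the median of all entries in that comparison to -0.27, upper-quartile factors to -0.10 and totals outside miR-1 to -0.12, so that these values are relative to such shifts.

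With each library left out in turn, signs turned for miR-30a-3p (-0.023 to 0.16) and miR-30e-3p (-0.26 to 0.047) in old AL against young AL, for miR-30a-5p (-0.022 to 0.20), miR-30c-5p (-0.069 to 0.097), miR-30d-5p (-0.11 to 0.026) and miR-30e-3p (-0.21 to 0.071) in old CR against young AL, and for miR-30b-5p (-0.079 to 0.15) and miR-30e-3p (-0.048 to 0.099) in old CR against old AL. The cause was not tested. No paired analysis was possible because the replicate numbers run from 1 to 18 and pair no samples. With 6 libraries per group the 95% intervals of 20 of 21 member comparisons lay within 2-fold either way. Differences of more than 2-fold lay outside these 20 intervals, whereas differences inside an interval are not excluded by it.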
